A study of Mus musculus with 26 samples.

Results

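The cytochrome P450 genes were followed in the lacrimal gland, which makes the watery part of tears, on 26 Affymetrix arrays from male C57BL/6.NOD-Aec1Aec2 mice. Every gene whose symbol starts with Cyp and a digit was taken, with the probe set of the highest mean over all arrays among those naming only that gene. This gave 73 P450 genes of the 18194 genes with a probe set of their own. The mice carry a pair of chromosome segments from the NOD strain, Idd5 (chromosome 1) and Idd3 (chromosome 3), on a C57BL/6 background. They serve as a model of Sjögren's syndrome, in which the tear and salivary glands are attacked by the immune system. All 5 age groups share these segments. The labels place 4 weeks (n = 4) before disease, 8 weeks (n = 6) in an early stage without clinical signs, 12 weeks (n = 6) at the first entry of leukocytes, 16 weeks (n = 5) in the early clinical phase and 20 weeks (n = 5) at the start of failing secretion. No control strain was analysed here, so age and disease stage cannot be told apart.

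P450 enzymes are haem proteins that insert oxygen into their substrates, with electrons handed on by P450 reductase and cytochrome b5 in the endoplasmic reticulum or by ferredoxin in mitochondria. Members of the Cyp1, Cyp2 and Cyp3 families act largely on foreign compounds, Cyp4 enzymes hydroxylate fatty acids, and other members make or break down steroids, bile acids, vitamin D and retinoic acid. In rodent liver and kidney many P450 genes differ between the sexes and change around puberty.

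Values are the deposited log2 expression values. A level under 4.04, within 1 log2 unit of the middle of the array medians, is called near background. A difference between such a level and one that is not near background is a lower bound. Where both levels are near background, the difference is not taken as a bound. Each difference is the later age minus the earlier, given ± the standard error of a limma fit over all 26 arrays, and a gene is called at an adjusted p under 0.05 (Benjamini-Hochberg over the 12377 genes kept by a filter on dim genes). A pair of arrays stood apart, 16 weeks replicate 4 and 20 weeks replicate 1, on which the SD of all log2 values was 1.68 and 1.36, against 1.78 to 2.27 on the others. The mean of 10 markers of lacrimal acini, the secreting units, was 8.91 and 8.24 on these arrays and between 9.45 and 11.62 on the other 24. The 3' minus 5' difference of the actin control probe sets, a measure of RNA integrity, was 5.71 and 4.97 on these arrays. It was between 1.87 and 5.60 on the other 24. Defining acinar genes were well above background at all ages, with Pip at a mean of 14.80 and Aqp5 at 10.54 over all arrays, whereas Chrm3 was at 2.58. The mean of 9 salivary gland markers varied widely between arrays, from 5.27 to 10.85. The part of salivary tissue in the P450 values was not tested. The labels call each array a biological replicate and do not say whether it came from 1 mouse or a pool, so a p-value weighs only the spread among these arrays, which may be technical in part.

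Of the 73 P450 genes, 36 passed the filter and 37 did not. At least 1 age mean lay at or above the near-background line for 18 of the 73, and 55 were near background at every age. A member that passed only through an age at which it was high had to differ between ages, so the calls below describe the 36 and not the family. In the F test over the 5 ages, 6 of the 36 were called (16.7%), against 14.9% of all genes tested. They were Cyp4a12a, Cyp2j13, Cyp39a1, Cyp2b19, Cyp4v3 and Cyp27a1, with adjusted p from 6.14e-08 to 0.0136. From 4 to 8 weeks, 3 members rose (8.33%, against 1.14% of all genes) and 2 fell (5.56%, against 0.218%). Cyp2b19, among those that fell, passed the filter only through 4 arrays of 4 weeks and 1 of 20 weeks. Its calls here and in the F test were therefore favoured by the filter. The members were chosen with earlier results of these data known, so these shares are not a test of the family. No member was called by limma from 8 to 12 weeks (0.0162% of all genes called), from 12 to 16 weeks (2.98%) or from 16 to 20 weeks (0.0162%). At an unadjusted p under 0.05 there were 0, 3 and 0 of the 36 members in these steps. The shares of all genes at that threshold were 4.96%, 20.9% and 8.14%. Between 4 and 20 weeks 1 member was higher (background 0.897%) and 2 were lower (background 1.31%). Between 8 and 20 weeks 5 members were higher (13.9%, background 10.6%) and 3 were lower (8.33%, background 14.7%). Cyp2c37, among those higher, passed the filter only through 1 array of 12 weeks, 1 of 16 weeks and 2 of 20 weeks. Its call was therefore also favoured by the filter. Over the 36, the median difference from 4 to 8 weeks was -0.12, against 0.03 over all genes, so the large changes were those of single members. The comparisons share arrays, so their counts are not independent of each other.

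**Figure D1:**
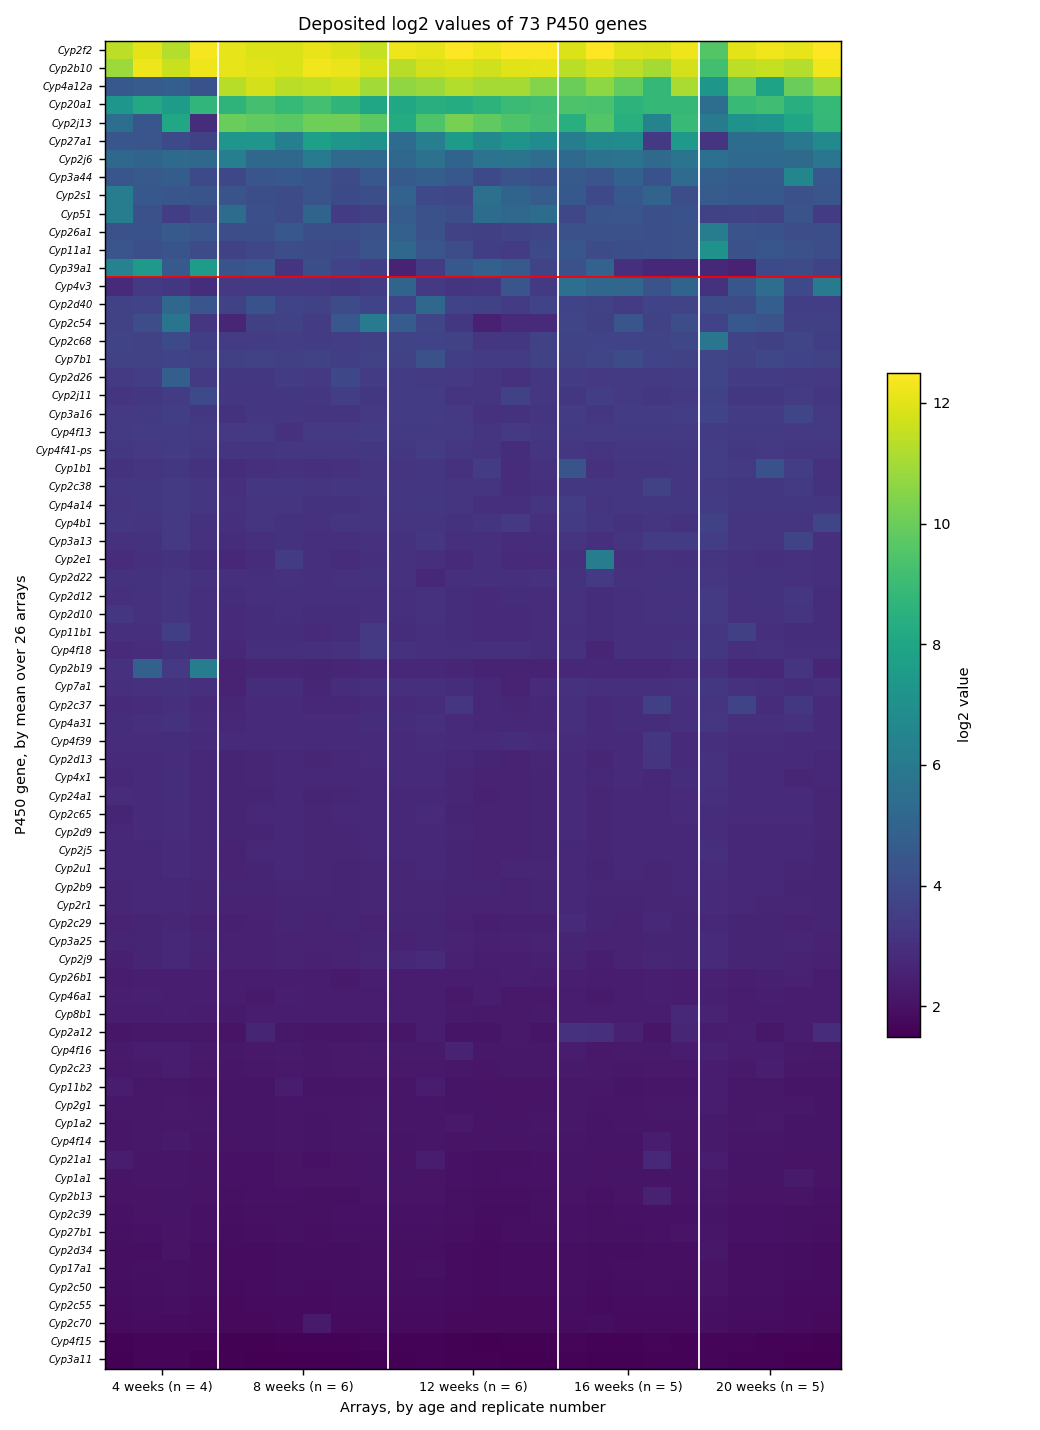
Deposited log2 value (colour) of the 73 P450 genes (rows, ordered by mean over all arrays) on the 26 arrays (columns, grouped by age with white lines between ages). The red line separates the genes with a mean over all arrays above the near-background level of 4.04 from the rest, and colours compare arrays within a gene, not amounts between genes. Cyp4a12a, Cyp2j13 and Cyp27a1 brighten between the 4 week and 8 week columns, and most of the lower rows are dark on every array.

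Among the 13 Cyp4 genes, whose enzymes hydroxylate fatty acids, 7 passed the filter and 2 rose above the near-background line at some age. Cyp4a12a, an enzyme that hydroxylates arachidonic acid and is known as a male-predominant, androgen-dependent gene in mouse kidney and liver, showed the largest change of any member from 4 to 8 weeks. Its values were 4.52, 4.67, 4.78 and 4.25 on the 4 week arrays. At 8 weeks they ran from 10.99 to 11.77 with a median of 11.40, and at 12 weeks from 10.45 to 11.22 with a median of 10.93. At 16 weeks they were 10.02, 10.62, 9.91, 8.81 and 11.10, and at 20 weeks 7.34, 9.75, 7.87, 9.99 and 10.75. All arrays of 8 weeks and later were higher than all arrays of 4 weeks, and the spread widened with the 2 oldest ages, where the SD was 0.86 and 1.46 against 0.28 at both 8 and 12 weeks.

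The rise of Cyp4a12a from 4 to 8 weeks was 6.88 ± 0.48 (118-fold, limma adjusted p = 5.13e-09), higher in 6 of 6 arrays. Between 8 and 20 weeks it fell by 2.29 ± 0.45 on the log2 scale (4.88-fold, adjusted p = 0.00262), with all 20 week arrays below all 8 week arrays. At 20 weeks it was still 4.59 ± 0.50 above 4 weeks (24.1-fold, adjusted p = 1.28e-05). No single step between neighbouring later ages passed the test, with differences of -0.56, -0.78 and -0.95. In whole tissue, fewer cells of a type and less RNA per cell cannot be told apart. Without the 2 arrays that stood apart the fall from 8 to 20 weeks was -1.84 (adjusted p = 0.00222). The gene lies in a cluster of close relatives on chromosome 4, next to the near-identical Cyp4a12b, so signal from that copy may be included.

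Its measured neighbours in the cluster were near background. Cyp4x1, separated from Cyp4a12a by 1 gene, had age means of 2.69 to 2.83 and did not pass the filter, and neither did Cyp4a31, at 2.84 to 3.03. Cyp4a14, a fatty acid hydroxylase induced through PPAR alpha in liver, stayed near background at 3.14 to 3.31 at every age. These neighbours are given for their position and were chosen after their values were seen.

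Cyp4v3, the mouse counterpart of human CYP4V2, a fatty acid hydroxylase of the eye whose loss causes a corneoretinal crystal disease, changed late. Its values were 2.80, 3.35, 3.27 and 2.93 at 4 weeks, from 3.30 to 3.40 with a median of 3.32 at 8 weeks, and from 3.14 to 5.03 with a median of 3.34 at 12 weeks. At 16 weeks they were 5.51, 5.17, 5.11, 4.32 and 5.04, and at 20 weeks 3.10, 4.43, 5.45, 3.91 and 6.07. All 5 arrays of 16 weeks lay above all arrays of 4 and 8 weeks, while the 20 week arrays overlapped them through replicate 1. It was at least 2.38-fold higher at 20 than at 8 weeks (1.25 ± 0.40, limma adjusted p = 0.0303). The call was lost without 8 weeks replicate 1 (adjusted p = 0.0579) or 4 (0.0531), without 20 weeks replicate 3 (0.0711) or 5 (0.88, 0.0658), and with arrays centred on their medians (0.0507). From 12 to 16 weeks the difference was 1.28 ± 0.40 (adjusted p = 0.074), and without 12 weeks replicate 1, which read 5.03, it was 1.54 (0.0199). That step was also called without 20 weeks replicate 1 (0.0309) or 5 (0.0425), although these are not in the step compared. Its other probe set stayed at 2.86 to 3.00 at all ages, so the change was seen by 1 of the 2.

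Among the 16 Cyp2j and Cyp2c genes, several of which encode enzymes that turn arachidonic acid into epoxides, 7 passed the filter and 4 rose above the near-background line at some age. Cyp2j13, a mouse Cyp2j enzyme, was another member that rose steeply. At 4 weeks its values spread widely, at 5.48, 4.46, 8.04 and 2.94. At 8 weeks they were tight, from 9.69 to 10.11 with a median of 9.91, and at 12 weeks they ran from 8.28 to 10.23 with a median of 9.47. At 16 weeks they were 8.42, 9.56, 8.43, 6.42 and 8.94, and at 20 weeks 6.09, 7.09, 7.27, 8.00 and 8.82. The 8 week arrays lay above all arrays of 4 weeks and of 20 weeks.

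Cyp2j13 rose by 4.67 ± 0.69 from 4 to 8 weeks (25.5-fold, limma adjusted p = 7.66e-04) and fell by 2.45 ± 0.65 on the log2 scale between 8 and 20 weeks (5.46-fold, adjusted p = 0.0143). The rise was called in all 38 alternative fits, with differences of 3.91 to 5.61. The fall was not called with the array's SD as a covariate (-1.88, adjusted p = 0.0877) or with the 3' minus 5' difference of the actin control probe sets, a measure of RNA integrity, as a covariate (-2.07, adjusted p = 0.0859). At 20 weeks it was 2.22 ± 0.72 above 4 weeks (adjusted p = 0.115), and this difference was called without 4 weeks replicate 3, which read 8.04 (3.16, 0.00743), and without 20 weeks replicate 1 (2.56, 0.0417). The measure of RNA integrity itself had age means of 2.90, 2.63, 3.69, 4.56 and 3.89 from 4 to 20 weeks.

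The window of 250 bases before the start of transcription is shown for Cyp2j13 and for Cyp27a1, since both rose from 4 to 8 weeks, from RefSeq's GRCm38.p6 promoter table, in which 52 of the 73 genes had an entry. The window of Cyp2j13 is chr4:96077541-96077790 on the minus strand, the lower of its 2 entries, and that of Cyp27a1 is chr1:74713285-74713534 on the plus strand. Both are written 5′ to 3′ along the gene, and capitals mark matches, on either strand, to GGGCGG (a core that Sp1 binds) and GCGTG (the core of the aryl hydrocarbon receptor element). AGGTCA (a nuclear receptor half-site), TGTTCT (a half-site of steroid hormone receptors) and TATAAA were also searched and were not found in these windows.
Cyp2j13: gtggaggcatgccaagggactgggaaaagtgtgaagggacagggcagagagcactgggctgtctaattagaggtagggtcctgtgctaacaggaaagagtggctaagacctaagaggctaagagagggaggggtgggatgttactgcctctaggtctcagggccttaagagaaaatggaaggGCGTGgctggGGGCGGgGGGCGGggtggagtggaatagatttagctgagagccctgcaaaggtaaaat
Cyp27a1: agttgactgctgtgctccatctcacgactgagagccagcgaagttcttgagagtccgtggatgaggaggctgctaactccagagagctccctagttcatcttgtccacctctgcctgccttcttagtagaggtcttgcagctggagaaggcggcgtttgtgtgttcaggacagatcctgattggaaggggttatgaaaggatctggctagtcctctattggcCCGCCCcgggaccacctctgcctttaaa
Cyp2j13 held GGGCGG at 58 and 51 bases before the start and GCGTG at 68, with no overlap among them, and Cyp27a1 held GGGCGG on the opposite strand at 28. GGGCGG occurred in 32.7% of the windows of all 27025 genes and in 16 of the 52 P450 windows (30.8%), and GCGTG in 28% and 12 (23.1%). TATAAA occurred in 12.9% of all windows and in 19 of the 52 P450 windows (36.5%), AGGTCA in 14% and 11 (21.2%), and TGTTCT in 16.2% and 8 (15.4%). A match is a description of the letters and not a site in use.

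The other measured genes of the Cyp2j cluster on chromosome 4 had no call. Cyp2j6, an epoxygenase of gut and heart, had age means of 5.20 to 5.53 and an F test adjusted p of 0.576. Cyp2j11, separated from Cyp2j13 by 1 gene, was near background at 3.30 to 3.47, and Cyp2j5 and Cyp2j9 did not pass the filter. Of the Cyp2c genes, Cyp2c37 was near background at every age, and its small increase from 8 to 20 weeks is given with the other dim members below. Cyp2c38, Cyp2c54 and Cyp2c68 had no call in any comparison, and the rest of the Cyp2c genes did not pass the filter and were not tested.

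**Figure D2:**
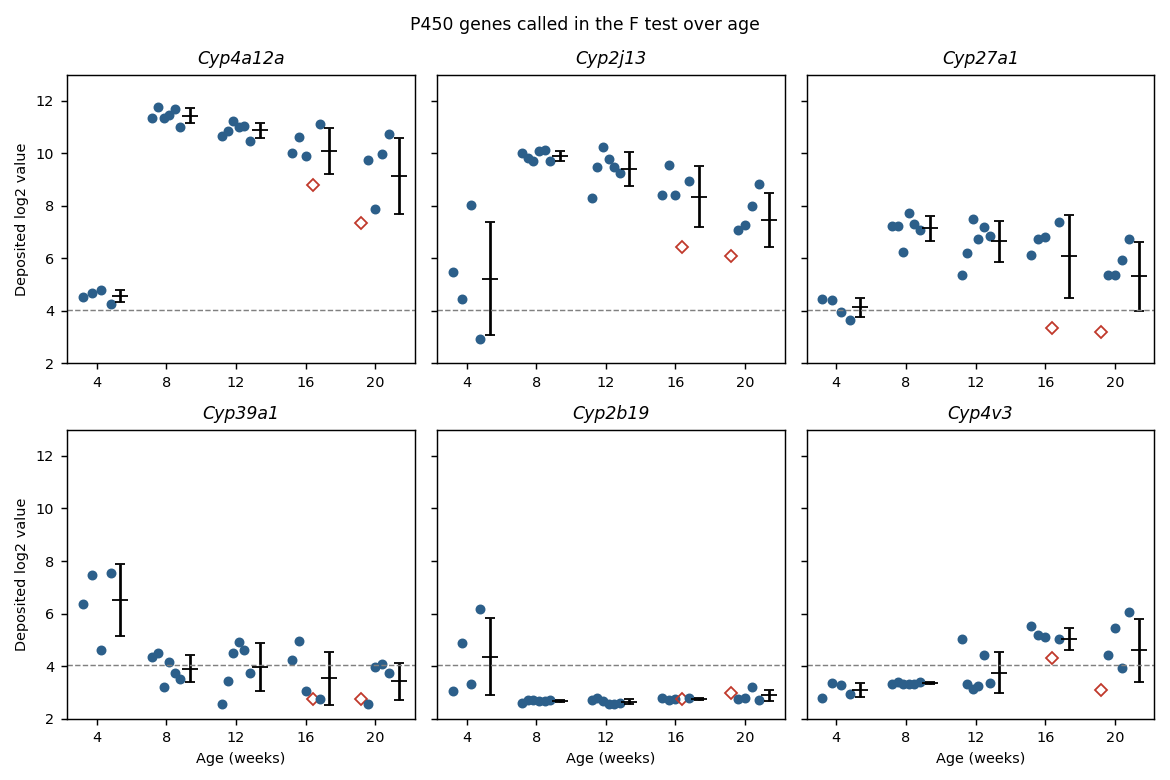
Deposited log2 value on each array (points) by age in weeks for the 6 P450 genes called in the F test, with the mean and SD of each age in black beside the points, the near-background level of 4.04 as a dashed line, and open red diamonds for 16 weeks replicate 4 and 20 weeks replicate 1. Cyp4a12a, Cyp2j13 and Cyp27a1 step up from 4 to 8 weeks and spread downwards at 16 and 20 weeks, Cyp39a1 and Cyp2b19 step down after 4 weeks, and Cyp4v3 is higher on the 16 week arrays.

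The 7 genes of cholesterol and bile acid metabolism held 1 member that rose early and 1 that fell. Cyp27a1, the mitochondrial sterol 27-hydroxylase of bile acid synthesis, read 4.45, 4.42, 3.97 and 3.67 at 4 weeks, from 6.25 to 7.73 with a median of 7.24 at 8 weeks, and from 5.35 to 7.48 with a median of 6.80 at 12 weeks. At 16 weeks it read 6.12, 6.72, 6.80, 3.36 and 7.40, and at 20 weeks 3.20, 5.37, 5.38, 5.93 and 6.73. The 8 week arrays lay above all 4 week arrays, and 16 weeks replicate 4 and 20 weeks replicate 1 fell back to the 4 week level.

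Cyp27a1 rose by 3.01 ± 0.63 from 4 to 8 weeks (8.06-fold, limma adjusted p = 0.0166), a call lost without 4 weeks replicate 3 (2.96, 0.0632) or 4 (2.86, 0.0588). It fell by 1.82 ± 0.59 on the log2 scale between 8 and 20 weeks (3.53-fold, adjusted p = 0.0324), and the groups overlapped. That fall was not called without 20 weeks replicate 1 (-1.29, 0.112), without 8 weeks replicate 1 (0.0621), 2 (0.0509), 4 (0.0649) or 5 (0.0535), after quantile normalization (-1.51, 0.0606) or with the array's SD as a covariate (-0.67, 0.28). Without both arrays that stood apart it was called (-1.29, adjusted p = 0.0224). Its other probe set stayed at 2.88 to 3.06 at all ages. Macrophages express Cyp27a1, and the mean of 10 macrophage markers was 4.47 to 5.08 on the 4 week arrays and 6.33 to 7.25 on the 8 week arrays, with 4 of the 9 kept markers called higher, against 1.14% of all genes. Among them, C1qb had means of 7.42 and 9.95 and Lyz2 of 7.17 and 10.75, while Cd14 was near background at every age. At 12, 16 and 20 weeks the mean of the 10 markers was 6.65, 6.40 and 6.45, and Cyp27a1 had means of 6.64, 6.08 and 5.32. On 16 weeks replicate 4 the marker mean was 5.905, where Cyp27a1 read 3.36. On 20 weeks replicate 1 the marker mean was 4.672, within the range of the 4 week arrays, where Cyp27a1 read 3.20. The part of macrophages in the course of Cyp27a1 was not tested.

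Cyp39a1, an oxysterol hydroxylase on an alternative route to bile acids, went the other way. It read 6.38, 7.46, 4.60 and 7.56 at 4 weeks, from 3.19 to 4.49 with a median of 3.94 at 8 weeks, and from 2.54 to 4.93 with a median of 4.13 at 12 weeks. At 16 weeks it read 4.22, 4.96, 3.03, 2.73 and 2.73, and at 20 weeks 2.75, 2.57, 3.95, 4.06 and 3.74. All 4 week arrays lay above all arrays of 8 and of 20 weeks, although replicate 3 came within the range of the later arrays at 12 and 16 weeks. Cyp39a1 fell from 4 to 8 weeks by at least 6.04-fold (-2.60 ± 0.56, limma adjusted p = 0.0215) and was at least 8.49-fold lower at 20 than at 4 weeks (-3.09 ± 0.58, adjusted p = 0.00674). The fall to 8 weeks was not called without 4 weeks replicate 2 (-2.28, 0.11) or 4 (-2.24, 0.0763) or 8 weeks replicate 3 (-2.45, 0.052), while the difference at 20 weeks was called without any single array. The promoter table held no entry for Cyp39a1 or Cyp4a12a.

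Of the other genes of this group, Cyp51, the lanosterol demethylase of cholesterol synthesis, varied between arrays at 3.42 to 6.18 without a call. Cyp7b1, which hydroxylates oxysterols, was near background at 3.61 to 3.78. Cyp7a1, the rate-limiting enzyme of bile acid synthesis in liver, and Cyp8b1 and Cyp46a1 did not pass the filter. Of 11 hepatocyte markers 9 did not pass it either, among them Alb at a mean of 2.22, while Ttr and Fgg, at 7.90 and 11.41, did.

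The 25 members that act on drugs and foreign compounds held Cyp2f2 and Cyp2b10, with signals well above background and no call at any age, and Cyp2b19, which was near background after 4 weeks. Cyp2f2, which activates naphthalene in the airway, had age means of 11.77, 11.94, 12.36, 12.11 and 11.76 (SD 0.52, 0.21, 0.22, 0.26 and 1.26) and an F test adjusted p of 0.525. Its values ran from 11.26 to 12.82 on 25 arrays, with 9.57 on 20 weeks replicate 1. Cyp2b10, the classical phenobarbital-induced P450 of mouse liver and a target of the receptor CAR, had means of 11.74, 12.04, 11.80, 11.46 and 11.13 (SD 0.63, 0.16, 0.27, 0.31 and 1.17). It read 9.17 on 20 weeks replicate 1 and 10.89 to 12.28 on the others. Its difference between 8 and 20 weeks was -0.90 ± 0.35 (adjusted p = 0.0606), and its 2 other probe sets also had their highest mean at 8 weeks (11.67 and 10.53) and their lowest at 20 weeks (10.67 and 9.75).

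Cyp2b19, known as the P450 of differentiating keratinocytes, was measurable only on some 4 week arrays. It read 3.05, 4.88, 3.33 and 6.18 there, and from 2.54 to 3.20 on the other 22 arrays. Replicates 2 and 4 carried the signal, and replicates 1 and 3 were near background. Cyp2b19 passed the filter only through the 4 arrays of 4 weeks and 1 of 20 weeks, so it had to differ between ages, and its p-values are a description and not a test of that difference. It was lower at 8 than at 4 weeks by at least 3.23-fold (-1.69 ± 0.35, limma adjusted p = 0.0159), with all 8 week arrays lower, and was at least 2.79-fold lower at 20 weeks (-1.48 ± 0.37, adjusted p = 0.0355), where the groups overlapped. The difference at 8 weeks was -1.09 without 4 weeks replicate 4 (0.0263), and it was not called without replicate 2 (-1.52, 0.088). The difference at 20 weeks was not called without 4 weeks replicate 2 (-1.31, 0.136) or 4 (-0.87, 0.111) or 20 weeks replicate 2 (0.0668), 3 (0.0732) or 4 (0.0602). Neither was called in the fits of the compared ages alone (adjusted p = 0.158 and 0.472). The mean of 6 markers of keratinised skin was 3.55, 3.42, 3.48 and 3.33 on 4 week replicates 1 to 4. At 8, 12, 16 and 20 weeks its age means were 3.83, 3.91, 3.78 and 3.91. The part of skin cells in the Cyp2b19 signal was not tested.

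Cyp2b10 and Cyp2b19 lie in the same cluster on chromosome 7, and their windows of 250 bases before the start are shown because the genes are close relatives that differed in their course. They are chr7:25897408-25897657 for Cyp2b10 and chr7:26756892-26757141 for Cyp2b19, both on the plus strand of GRCm38.p6, 5′ to 3′, with capitals for the bases that were alike in an alignment of the pair.
Cyp2b10: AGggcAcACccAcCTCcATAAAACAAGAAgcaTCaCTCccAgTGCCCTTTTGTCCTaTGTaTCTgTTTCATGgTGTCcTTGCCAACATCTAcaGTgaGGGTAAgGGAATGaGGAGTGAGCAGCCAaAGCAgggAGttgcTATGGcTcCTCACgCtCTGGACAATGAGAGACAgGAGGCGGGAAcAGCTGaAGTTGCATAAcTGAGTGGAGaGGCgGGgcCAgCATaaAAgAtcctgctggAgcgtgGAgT
Cyp2b19: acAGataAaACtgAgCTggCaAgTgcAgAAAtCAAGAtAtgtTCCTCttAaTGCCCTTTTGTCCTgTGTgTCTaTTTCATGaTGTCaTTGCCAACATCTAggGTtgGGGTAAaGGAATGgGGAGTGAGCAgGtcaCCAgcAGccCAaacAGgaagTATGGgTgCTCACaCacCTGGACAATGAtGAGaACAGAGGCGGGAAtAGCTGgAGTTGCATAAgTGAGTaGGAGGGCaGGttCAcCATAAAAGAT
In that alignment 185 of 271 columns held the same base (68.3%), against 129 of 269 (48%) for the pair Cyp2j13 and Cyp27a1 aligned in the same way. Of the motifs above, the window of Cyp2b10 held GCGTG on each strand, and that of Cyp2b19 held AGGTCA and, on the opposite strand, TGTTCT. Cyp2s1, the neighbour of Cyp2b10 on one side and a P450 of epithelia outside the liver, had age means of 4.16 to 4.87 without a call, and Cyp2b13, on the other side, was near background at 2.01 to 2.15. Next to Cyp2f2, Cyp2a12 was at 2.19 to 2.69, and next to Cyp2b19, Cyp2g1 was at 2.14 to 2.22.

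The classical members induced by aryl hydrocarbons were near background, with Cyp1a1 at 2.06 to 2.17, Cyp1a2 at 2.15 to 2.20 and Cyp1b1 at 3.06 to 3.54. Of the Cyp3a genes, which dominate drug oxidation in liver, Cyp3a11 and Cyp3a25 did not pass the filter and Cyp3a44 had age means of 4.29 to 5.02 without a call. Cyp2e1, which oxidises ethanol and acetone, read 6.14 on 16 weeks replicate 2 and 2.76 to 3.41 on the other 25 arrays. The mean of 7 adipose tissue markers was 6.18 on that array, and 5.91 on 16 weeks replicate 1 and 5.81 on 12 weeks replicate 1, where Cyp2e1 read 3.00 and 3.06. The 7 P450 genes of this paragraph were named after their values were seen.

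**Figure D3:**
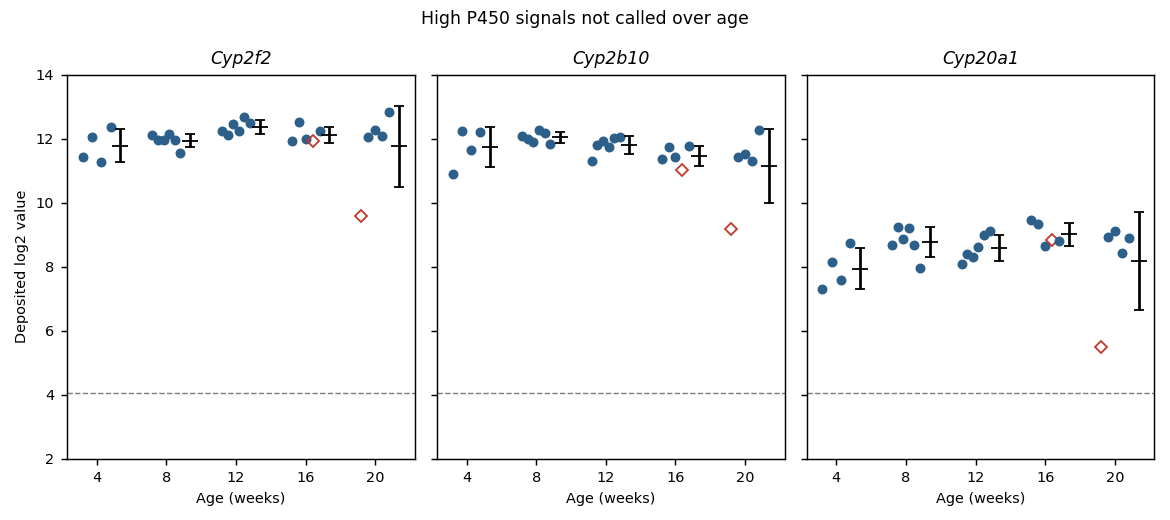
Deposited log2 value on each array (points) by age in weeks for Cyp2f2, Cyp2b10 and Cyp20a1, with the mean and SD of each age in black, the near-background level of 4.04 as a dashed line, and open red diamonds for 16 weeks replicate 4 and 20 weeks replicate 1. None of the 3 genes is called in any comparison, and 20 weeks replicate 1 is the lowest point of each.

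Steroid hormone synthesis was represented by 5 members, of which 2 passed the filter and none was called. Cyp11a1, the side chain cleavage enzyme that starts steroid synthesis, read 3.46 to 5.18 on 25 arrays and 7.09 on 20 weeks replicate 1. Its 2 other probe sets were near background, with age means of 2.73 to 2.85 and 2.64 to 2.73. Their SD at 20 weeks was 0.096 and 0.072, so the high reading was seen by 1 of the 3 probe sets. Cyp11b1, an adrenal 11-beta-hydroxylase, was near background at 2.90 to 3.14, and Cyp17a1, Cyp21a1 and Cyp11b2 did not pass the filter. Of 4 markers of steroid-producing cells, Star was above the near-background line at a mean of 4.49 and Hsd3b1 was at 2.57. Of the 5 vitamin D and retinoic acid members only Cyp26a1, which breaks down retinoic acid, passed the filter. It read 3.60 to 4.86 on 25 arrays and 6.18 on 20 weeks replicate 1, with age means of 3.98 to 4.59. Cyp26b1, Cyp24a1, Cyp27b1 and Cyp2r1, of the same pathways, were near background at every age.

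Cyp20a1, a P450 with no settled substrate, was 1 of the 2 remaining members, and Cyp2u1, a fatty acid hydroxylase of brain and thymus, did not pass the filter. The age means of Cyp20a1 were 7.94, 8.77, 8.58, 9.01 and 8.16 (SD 0.63, 0.47, 0.41, 0.35 and 1.53), with an F test adjusted p of 0.325. Another of the 3 Cyp20a1 probe sets had means of 4.44, 4.69, 5.10, 5.63 and 5.61 (SD 0.33, 0.34, 0.59, 0.31 and 0.89) and was not tested, and the remaining one was near background at 3.13 to 3.46. The probe set used for Cyp20a1 read 5.47 on 20 weeks replicate 1 and 7.30 to 9.44 on the others. Cyp20a1 lies on chromosome 1 with 3 protein-coding genes between it and Ctla4, a gene often discussed for Idd5, and Cyp27a1 lies on the same chromosome with 10 between it and Slc11a1, another such gene. All mice carried Idd5 from NOD, so no effect of that segment on either gene could be measured here.

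**Figure D4:**
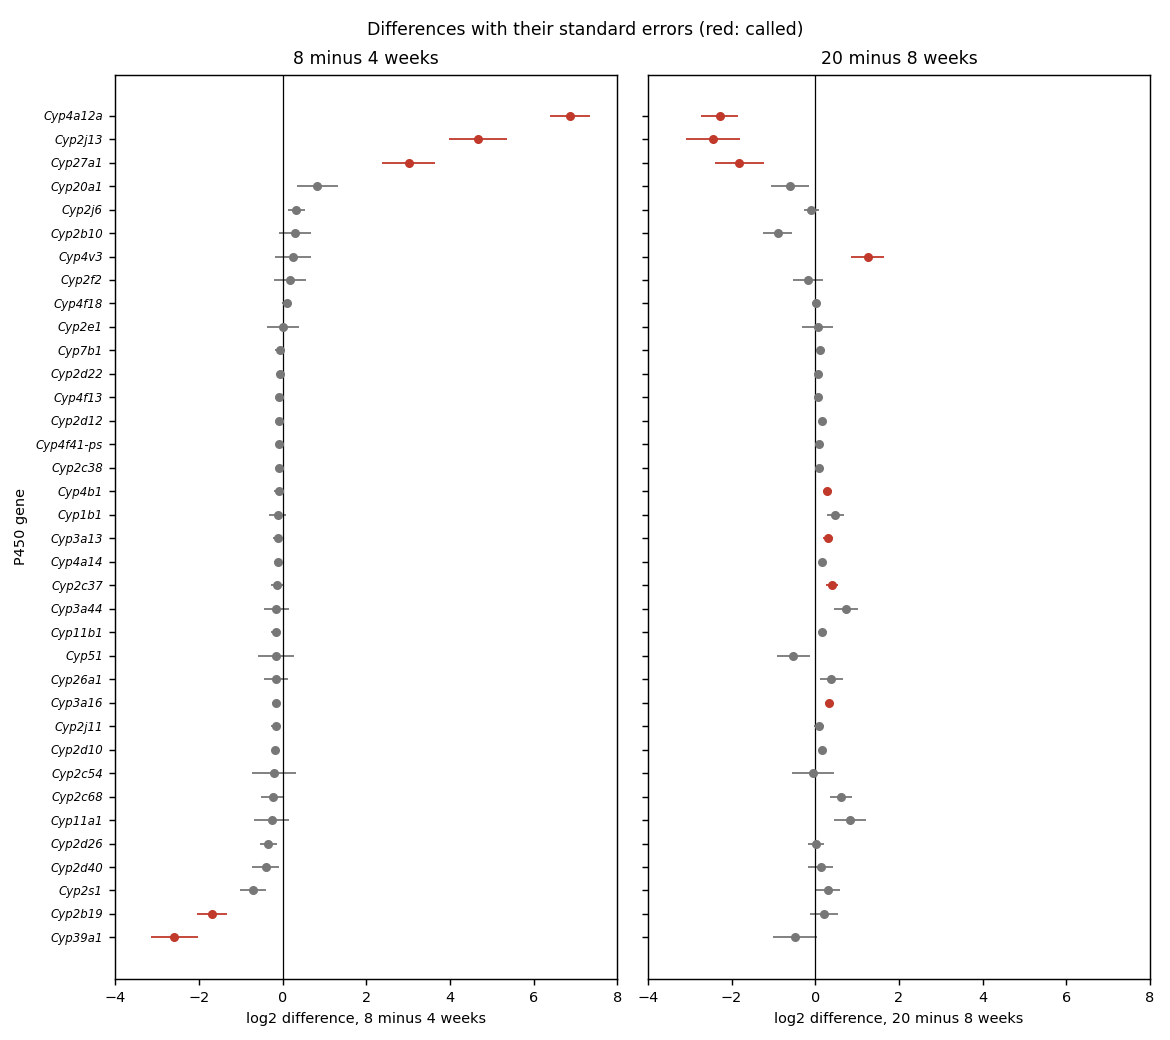
Log2 difference between 8 and 4 weeks (left) and between 20 and 8 weeks (right) for the 36 P450 genes that passed the filter, ordered by the left panel, with bars for the standard error and red for genes called at an adjusted p under 0.05. Cyp4a12a, Cyp2j13 and Cyp27a1 lie far to the right in the left panel and to the left in the right panel, and the panels share the 8 week arrays, which link their values.

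The other 4 members called higher at 20 than at 8 weeks were near background at every age and differed by little. Cyp3a16 was higher by 0.32 ± 0.09 (limma adjusted p = 0.0202), with all 20 week arrays above all 8 week arrays, Cyp2c37 by 0.39 ± 0.14 (0.0489), Cyp3a13 by 0.31 ± 0.11 (0.0468) and Cyp4b1 by 0.29 ± 0.10 (0.0456). Each of the 4 shrank and was not called without single arrays of 20 weeks. Cyp3a16 was at 0.28 without replicate 1 (adjusted p = 0.0554) and at 0.25 without replicate 4 (0.063). Cyp2c37 was at 0.26 without replicate 2 (0.154), Cyp3a13 at 0.20 without replicate 4 (0.149) and Cyp4b1 at 0.19 without replicate 5 (0.115). Cyp2c37 passed the filter through only 4 arrays, 2 of them of 20 weeks and none of 4 or 8 weeks, so its call was favoured by the filter. Of the 37 alternative fits, Cyp3a16 was called in 31, Cyp3a13 and Cyp4b1 in 16 each and Cyp2c37 in 8. None of the 4 was called with the array's SD or the actin difference as a covariate, or without the 2 arrays that stood apart (adjusted p = 0.0547, 0.0529, 0.111 and 0.142 in the order given). All 18 members that passed the filter but were near background at every age had a positive difference between 8 and 20 weeks, as did 79.2% of the 4428 such genes among all those tested, of which 825 (18.6%) were called higher.

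The mean of the 55 members that were near background throughout tended to be higher on arrays with a narrower spread. It was 2.66, 2.58, 2.57, 2.67 and 2.69 at the 5 ages, and the mean SD of the arrays was 1.95, 2.12, 2.15, 1.98 and 1.87. Its highest value, 2.83, was on 20 weeks replicate 1, the array with the lowest SD, and the 3 arrays with the highest SD (2.26 to 2.27) had means of 2.50 to 2.51. The part of the array's spread in the small changes of dim members was not tested beyond the covariate fits above.

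**Figure D5:**
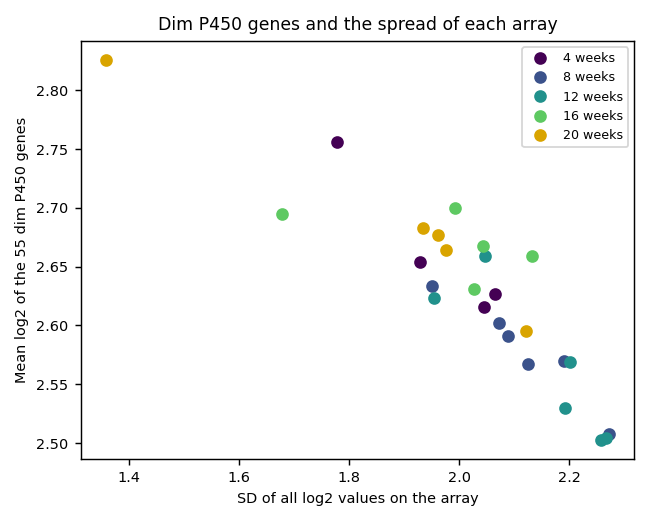
Mean log2 value of the 55 P450 genes that were near background at every age (vertical axis) against the SD of all log2 values on the same array (horizontal axis) for the 26 arrays, coloured by age. Arrays with a narrower spread tend to lie higher, up to 2.83 at an SD of 1.36 on 20 weeks replicate 1. The order is not strict: 16 weeks replicate 4 (SD 1.68) is at 2.695, below 4 weeks replicate 3 (SD 1.78) at 2.76.

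Proteins that feed electrons and haem to P450 enzymes were read from lists chosen by function. Of 10 electron donors and partners, 7 were measured and all 7 passed the filter, and 2 of them fell between 8 and 20 weeks (background 14.7%). Cyb5b, the cytochrome b5 of the mitochondrial outer membrane, had age means of 5.07, 5.67, 5.87, 4.86 and 4.37, and fell by 1.30 ± 0.33 on the log2 scale between 8 and 20 weeks (limma adjusted p = 0.012), though it was not called with the array's SD as a covariate (-0.97, 0.08). The other was Cyb5r3, the reductase of cytochrome b5, with -0.97 ± 0.33 (adjusted p = 0.0393), which was called in 25 of 38 alternative fits and not without 20 weeks replicate 1 (-0.58, 0.142), 2 (0.0637) or 4 (0.0583) or 8 weeks replicate 1 to 5 (0.054 to 0.0871). Cyb5a, the microsomal cytochrome b5, had means of 10.69 to 11.22 (F test adjusted p = 0.862), and Fdx1, the ferredoxin that serves mitochondrial P450 enzymes such as Cyp27a1, had means of 9.82, 10.10, 10.07, 8.40 and 8.31 (0.141). Por, the P450 reductase, and Fdxr, the ferredoxin reductase, were not analysed here. Of 12 genes of haem synthesis and breakdown, 10 were kept, and 1 rose (background 10.6%) and 1 fell (background 14.7%) between 8 and 20 weeks. Alas1, the rate-limiting enzyme of haem synthesis, had means of 9.07, 10.46, 9.57, 9.15 and 7.81, and fell by 2.65 ± 0.63 between those ages (adjusted p = 0.00748). All its 20 week values lay below all its 8 week values. Alas1 was not called with the actin difference as a covariate (-1.89, 0.0764). The gene that rose was Hmox1, haem oxygenase, by 0.31 ± 0.09 (0.0217) near background.

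Of 23 nuclear and xenobiotic receptors measured, 15 were kept, and 1 rose (background 10.6%) and 1 fell (background 14.7%) between 8 and 20 weeks. Rxra, the partner of many nuclear receptors, fell by 1.08 ± 0.27 between those ages (limma adjusted p = 0.0116), though not after quantile normalization (-0.24, 0.666) or with the array's SD as a covariate (-0.89, 0.0636). It was also lower at 20 than at 4 weeks (-1.15 ± 0.30, 0.048), which 13 of 38 alternative fits called. The gene that rose was Nr5a2, a nuclear receptor of liver and pancreas, by 0.32 ± 0.10 (0.0257) near background. Ahr, the aryl hydrocarbon receptor, had means of 4.64 to 5.44 without a call, and Ppara was near background at 3.43 to 3.56. Among 14 genes of eicosanoid synthesis and epoxide hydrolysis, Alox5ap, the partner of 5-lipoxygenase in leukocytes, rose from 4 to 8 weeks by 1.65 ± 0.31 (adjusted p = 0.00696) and was called in all 38 alternative fits. Ephx1, the microsomal epoxide hydrolase, fell between 8 and 20 weeks, from a mean of 7.60 to 6.10 (0.0473), and was called in 10 of 38 alternative fits and in 6 of the 26 that left out 1 array. Without 20 weeks replicate 1 its difference was -0.71 (0.14). Ephx2, the soluble hydrolase of the epoxides that Cyp2j and Cyp2c enzymes form, was near background at 3.50 to 3.97.

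Of 44 conjugation and aldehyde enzymes, which act on the products of P450 enzymes, 34 were kept, and 4 rose (background 10.6%) and 6 fell (background 14.7%) between 8 and 20 weeks, shares close to those of all genes. Aldh3a2, the fatty aldehyde dehydrogenase, had means of 8.92, 9.93, 9.72, 8.24 and 7.17, and fell by 2.76 ± 0.44 on the log2 scale between 8 and 20 weeks (limma adjusted p = 6.56e-04). Gstz1, which degrades tyrosine products, fell by 1.53 ± 0.27 (adjusted p = 0.00139). Both had all 20 week arrays below all 8 week arrays and were called in all 38 alternative fits. Sult1a1, a phenol sulphotransferase, had means of 3.86, 5.45, 4.93, 4.32 and 4.06, and fell by 1.39 ± 0.34 between those ages (adjusted p = 0.00958). This fall was not called with the array's SD (-1.07, 0.0626) or the actin difference (-1.31, 0.0543) as a covariate. The other 3 that fell were Gsta3, Gstt2 and Fmo5, with differences of -1.67, -1.15 and -1.31. Gstt2 was not called with the array's SD (adjusted p = 0.119) or the actin difference (0.113) as a covariate, or in the fit of the compared ages alone (0.0956). The 4 that rose, Gsta2, Ugt8a, Adh7 and Tpmt, differed by 0.19 to 0.48. From 4 to 8 weeks Sult1a1 rose by 1.59 ± 0.36 (adjusted p = 0.0298), a call lost without any 1 of the 4 week arrays or 8 weeks replicate 2, 3 or 4 (adjusted p from 0.053 to 0.0906). From 12 to 16 weeks Gstt2 fell by 1.40 ± 0.32 on the log2 scale (adjusted p = 0.0247), a call lost without 12 weeks replicate 4 or 5 or 16 weeks replicate 1, 3 or 4 (adjusted p from 0.0523 to 0.0683). The median of the list was -0.15 between 8 and 20 weeks, against -0.02 over all genes.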

How the data were processed

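RNA from each lacrimal gland sample was measured on an Affymetrix array. The deposited values are log2 expression for 45101 probe sets on 26 arrays. Per the submitters' processing notes RMA and GCRMA were used, with no version or order stated, and which of them gave these values is not stated there. The values were used as deposited. The platform annotation gave 34958 probe sets 1 gene symbol, 932 several, and did not list 9211. Genes were kept if above the array's median on at least 4 arrays. The tests used limma 3.58.1 under R 4.3.3 (lmFit and eBayes, 1 mean per age, no covariate), with an F test and 6 contrasts, all two-sided, after the steps had been tested on simulated data. The genes named were the members called, the 5 with the highest mean, Cyp4a12a, Cyp2j13, Cyp39a1, Cyp2b19 and an example for small roles. From each other list they came from the called genes with the smallest F test p. Members named beyond this rule were chosen after their values were seen. The members, lists and comparisons were chosen with earlier results of these data known. Same-numbered arrays of different ages had correlations of their deviations from the age means of -0.477 to 0.489 (median -0.080), and 14 of 47 pairs were over 0.1, so replicate numbers were not taken to pair samples. The number of arrays limits the precision. Alternatives were another normalization, centring, filters, probe set rules, variance models, covariates, a replicate block and fits without arrays. Promoter windows and gene order came from RefSeq tables of GRCm38.p6, which the array's files do not name as their build.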

Additional observations from a re-analysis of the deposited data

Results flagged for a closer look

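In 8 of the 75 groups formed by 15 named P450 genes and 5 ages, 1 array lay far from the others by Dixon's ratio, and chance flags about 1 in 20 groups. On 20 weeks replicate 1, the array with the lowest SD, Cyp20a1 read 5.47 (others 8.41 to 9.12), Cyp2f2 read 9.57 (others 12.05 to 12.82) and Cyp26a1 read 6.18 (others 4.08 to 4.30). On 8 weeks replicate 6, Cyp2f2 read 11.55 (others 11.94 to 12.15) and Cyp11b1 read 3.33 (others 2.83 to 2.95). Cyp11b1 read 3.55 on 4 weeks replicate 3 (others 2.98 to 3.02). Cyp2c37 read 3.26 on 12 weeks replicate 3 (others 2.67 to 2.88) and 3.60 on 16 weeks replicate 4 (others 2.83 to 3.04). The values of Cyp11b1 and Cyp2c37 are near background.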

How the results depend on the processing

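No named difference changed its direction in any alternative fit that called it or that was set against a call. From 4 to 8 weeks 5 members were called, 3 in the fit of the compared ages alone and 3 to 5 without single arrays. From 12 to 16 weeks 0 were called, 1 with the array's SD as a covariate, 1 without the 2 arrays that stood apart and 0 to 1 without single arrays. Between 4 and 20 weeks 3 were called, 5 after quantile normalization, 6 with the array's SD as a covariate, 6 without the 2 arrays, 0 in the fit of the compared ages alone (in which 4 of all genes were called) and 2 to 5 without single arrays. Between 8 and 20 weeks 8 were called, 4 with centred arrays, 4 with the stricter filter, 5 with the replicate block, 2 with the array's SD, 2 with the actin difference, 4 without the 2 arrays, 2 in the fit of the compared ages alone and 3 to 12 without single arrays. The F test called 6 members, and 6 to 8 without single arrays. From 8 to 12 and from 16 to 20 weeks 0 were called in every fit. The cause of these shifts was not tested, except that the fits of the compared ages alone hold fewer arrays and the stricter filter tests fewer genes. With the replicate block, the fall of Cyp39a1 from 4 to 8 weeks was -2.53 (limma adjusted p = 0.0626) and the difference of Cyp2b19 between 4 and 20 weeks was -1.47 (0.0581). The difference of Cyp4a12a between 4 and 20 weeks was not called in the fit of these ages alone (adjusted p = 0.0924). Signal over background limits what can be said of the 55 members that were near background at every age.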

Other observations

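A further 4 probe sets name several genes with at least 1 P450 symbol among them and entered no test, so their signal is not assigned to a gene. Of these, 3 had means over all arrays of 2.20, 2.61 and 3.17, near background. The other had a mean of 9.98 and ranged from 6.91 to 11.98 between arrays, with age means of 10.58, 10.88, 8.94, 10.00 and 9.65 from 4 to 20 weeks.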
